A study of Homo sapiens with 1 sample.

Results

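The miRNAs miR-192, miR-194 and miR-215, each with its 5p and 3p arm, were read on 1 microRNA microarray of the human colorectal carcinoma cell line DLD-1. The cells had received a non-targeting siRNA (si-NC, 1 array), the control for knockdown of circLONP2, a circular RNA from the LONP2 gene. An array of the knockdown was not analysed here, which left no conditions to compare and no p-value to compute. The 6 miRNAs (hsa-miR-192-5p, hsa-miR-192-3p, hsa-miR-194-5p, hsa-miR-194-3p, hsa-miR-215-5p and hsa-miR-215-3p) were found by name among the spots that are not controls, where they had 14 probes and 120 spots, out of 2549 miRNAs with 5893 probes and 50980 spots. No spot of the 6 was saturated. With 1 array, every error below is technical, taken from replicate spots or from the software that read the scan.

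A miRNA is cut from a hairpin precursor, whose 5p and 3p arms can each yield a mature miRNA. One arm is usually kept in the silencing complex as the guide, while the other is mostly degraded. Targets are chosen mainly by the seed, the stretch near the 5′ end that pairs with messenger RNA. miR-192, miR-194 and miR-215 are known as miRNAs of gut epithelium, liver and kidney, their genes are linked to the transcription factor HNF4A and to the intestinal factors CDX1 and CDX2, and they are also known to respond to p53.

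The mature sequences are shown first because they show how alike the 6 are. Each is written 5′ to 3′ with the seed, bases 2 to 8, in capitals, and all 6 were found in the RefSeq table on GRCh38.p14.
miR-192-5p: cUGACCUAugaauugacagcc
miR-215-5p: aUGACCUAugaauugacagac
miR-194-5p: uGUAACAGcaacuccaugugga
miR-192-3p: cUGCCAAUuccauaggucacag
miR-215-3p: uCUGUCAUuucuuuaggccaaua
miR-194-3p: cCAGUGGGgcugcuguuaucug
The 5p arms of miR-192 and miR-215 shared the seed UGACCUA and differed at 2 of 21 bases. Counted from 1 at the 5′ end of miR-192-5p, these were C1A and C20A. Of the 2248 miRNAs on the array with a sequence in the table, no other shared a seed with any of the 6 or lay within 4 mismatches of one. These mismatches were counted with the first bases aligned and any difference in length added, so shifted matches were not searched for. The 3p arms of miR-192 and miR-215 were less alike, with 8 mismatches over 22 bases in their best ungapped overlap, and their seeds differed.

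The 6 miRNAs come from 4 hairpins in 2 pairs. The hairpins follow, with the mature arms that the table lists in capitals, to show which arm belongs to which gene.
MIR192: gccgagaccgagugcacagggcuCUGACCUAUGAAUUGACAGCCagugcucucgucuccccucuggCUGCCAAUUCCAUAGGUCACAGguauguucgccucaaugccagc
MIR194-2: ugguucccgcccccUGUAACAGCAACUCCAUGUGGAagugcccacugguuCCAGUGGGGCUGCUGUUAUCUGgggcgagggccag
MIR215: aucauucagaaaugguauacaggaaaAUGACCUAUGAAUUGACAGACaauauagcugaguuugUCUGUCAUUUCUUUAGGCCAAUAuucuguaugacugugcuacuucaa
MIR194-1: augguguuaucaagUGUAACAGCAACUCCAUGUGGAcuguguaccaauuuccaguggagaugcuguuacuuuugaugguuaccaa
On GRCh38.p14, MIR192 lay at chr11:64891137-64891246 and MIR194-2 at chr11:64891355-64891439, both on the minus strand with 108 bases between them. Both were within the span of the long noncoding RNA gene MIR194-2HG on the same strand. MIR215 lay at chr1:220117853-220117962 and MIR194-1 at chr1:220118157-220118241, also on the minus strand, 194 bases apart. These were within the span of the protein-coding gene IARS2, which runs on the opposite strand, and of a long noncoding RNA locus, LOC124904515, on the same strand. The tables do not separate exons from introns.

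The duplicated gene matters for reading miR-194. The mature miR-194-5p was identical from MIR194-1 and MIR194-2, so its probes read both genes together. The table lists miR-194-3p for MIR194-2 only. The matching stretch of the MIR194-1 hairpin differed from it at 5 of 22 bases, by G8A, C10A, U19C, C20U and G22U counted from the 5′ end of miR-194-3p. The differing bases are in capitals here.
miR-194-3p: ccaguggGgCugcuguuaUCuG
MIR194-1: ccaguggAgAugcuguuaCUuU
A signal for miR-194-5p can thus come from either gene. Whether the miR-194-3p probes also bind a product of MIR194-1 was not tested.

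All 3 of the 5p arms were measured clearly, and the 3p arms ranged from clear to none. By the detection flag in the scanner file, 5 of the 6 were detected, where 44.4% of all miRNAs on the array were called detected. The exception was miR-215-3p. When 1 probe had to hold 50% or more of its spots well above background, 5 were again called, where 37.9% of all were. Stricter rules called 4, without miR-194-3p: spots of every probe well above background (29.4% of all), a median spot signal over the 99th percentile of negative control spots (31.2%), or a total gene signal of at least 5 (33.3%). The total gene signal is the summed signal over the probes of a miRNA, in intensity units. It was 832 ± 58.96 (error from the scanner software) for miR-192-5p, 798 ± 56.5 for miR-215-5p and 319 ± 23.7 for miR-194-5p. Among the 1133 detected miRNAs, whose median signal was 12.5 (quartiles 4.99 and 52.0), the 5p arms held ranks 65, 67 and 106 from the top. For the 3p arms the signal was 16.8 ± 1.38 for miR-192-3p, at rank 510, and 2.71 ± 0.390 for miR-194-3p, at rank 992. Probes of different miRNAs bind with different strength, so the ranks place signals on the array and are not an order of abundance.

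**Figure D1:**
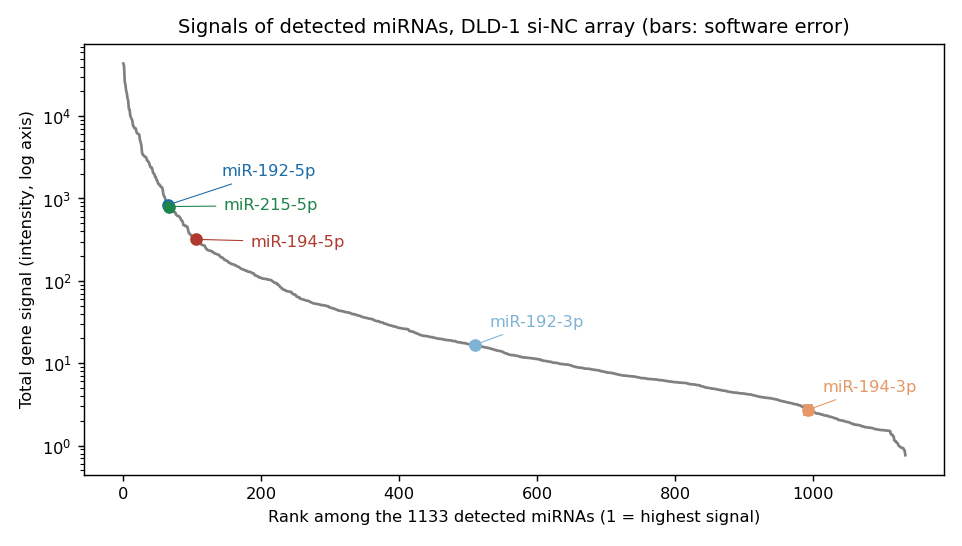
The total gene signal (log axis) of the 1133 miRNAs called detected is drawn as a line against rank, with the 5 detected members as points and the software's error as bars, mostly smaller than the points. The 5p arms sit at ranks 65, 67 and 106, miR-192-3p at 510 and miR-194-3p at 992; miR-215-3p was not detected and is not drawn.

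For miR-192-5p, the 10 spots of the probe A_25_P00010868 ran from 2201 to 2601 after background subtraction, with a median of 2427. Its other probe, A_25_P00010869, ran from 1928 to 2211, with a median of 2131. The spots of the probes touched at 1 spot of each and otherwise stood apart. All 20 spots were well above background, the software's flag for a signal clear of the local background.

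For miR-215-5p, whose targets overlap those of miR-192-5p through the shared seed, the probe A_25_P00010926 ran from 2100 to 2327 with a median of 2191. The probe A_25_P00010927 ran from 2029 to 2350 with a median of 2187. All 20 spots were well above background, and the range of the first probe lay inside that of the second. The spots of miR-215-5p also lay across the ranges of the miR-192-5p probes. The scanner file does not give probe sequences, and with 2 differing bases between these miRNAs, how much of each signal came from the other miRNA was not tested.

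For miR-194-5p, which has a seed of its own, the probe A_25_P00011006 ran from 537 to 650 with a median of 600. The probe A_25_P00011007 ran from 1019 to 1173 with a median of 1147. No spot of the first reached the range of the second. All 20 spots were again well above background.

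The 3p arm of miR-192 gave a low but steady signal. Its 10 spots on the probe A_25_P00013275 ran from 33.8 to 44.1 with a median of 37.6, and those on A_25_P00014532 from 48.2 to 60.1 with a median of 53.4. All 20 were well above background and above 16.1, the 99th percentile of the 1000 negative control spots.

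The 3p arm of miR-194 had 4 probes of 5 spots each, and they did not read alike. The probe A_25_P00013477 gave 14.3, 14.5, 16.2, 18.1 and 18.4, with 5 of 5 spots well above background. A_25_P00013476 gave 9.49, 11.9, 13.3, 15.3 and 16.7, with 3 of 5. A_25_P00013475 gave 1.04, 1.52, 3.51, 4.21 and 4.73, and A_25_P00013474 gave -2.65, -2.54, -1.34, -1.32 and -0.178, both with 0 of 5. In all, 8 of the 20 spots were well above background and 4 exceeded the 99th percentile of the negative control spots. The detection call of miR-194-3p thus rested on 2 of its 4 probes, at signals close to the negative controls.

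For miR-215-3p no spot was well above background. The probe A_25_P00018917 ran from -3.33 to 1.32 with a median of -1.71, and A_25_P00018918 from -2.02 to 0.290 with a median of -1.43. Of the 20 spots, 14 were at or below 0. The negative control spots had a median of 0.0894, so miR-215-3p was not detectable on this array, which does not show that it was absent.

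**Figure D2:**
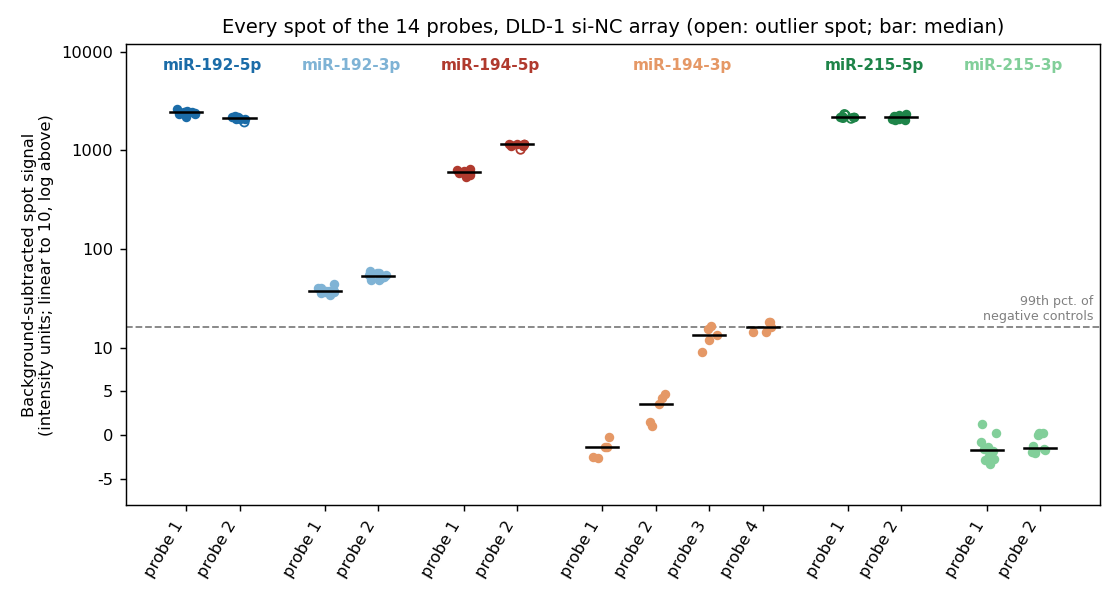
Each point is 1 spot of 1 of the 14 probes on the si-NC array, by background-subtracted signal in intensity units (linear up to 10, log above); bars are probe medians, open points are outlier spots, and the dashed line is the 99th percentile of negative control spots, 16.1. Probes are numbered within a miRNA in order of their name: the 5p arms lie between 537 and 2601, miR-192-3p between 33.8 and 60.1, miR-194-3p splits over its 4 probes, and miR-215-3p lies around 0.

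The arms of each hairpin were then read side by side. For miR-192, both arms were detected, at 832 for 5p and 16.8 for 3p. For miR-194 both were detected as well, at 319 and 2.71, where 5p is listed for 2 genes and 3p for 1. For miR-215, 5p was detected at 798 and 3p was not. So 2 of the 3 families had both arms detected, where 28.6% of the 810 pairs of arms on the array did. Another 20.1% of pairs had 5p alone, as miR-215 did, 15.1% had 3p alone and 36.2% had neither. The arms are not set against each other as amounts and no arm ratio is given, because the probes of the arms differ.

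Pairs with a bright arm were a closer setting for these families. Of the 124 pairs with an arm at a signal of 100 or more, the other arm was undetected in 37 (29.8%), detected below 5 in 20 (16.1%) and at 5 or more in 67 (54.03%). One of the 3 families fell in each of these classes: miR-215 in the first, miR-194 in the second and miR-192 in the third. The limits of 100 and 5 were set with the values known, and the 3 families are described, not tested. When a signal of 5 or more was required of each arm, miR-192 was the only one of the 3 with both, where 16.7% of all pairs had both.

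**Figure D3:**
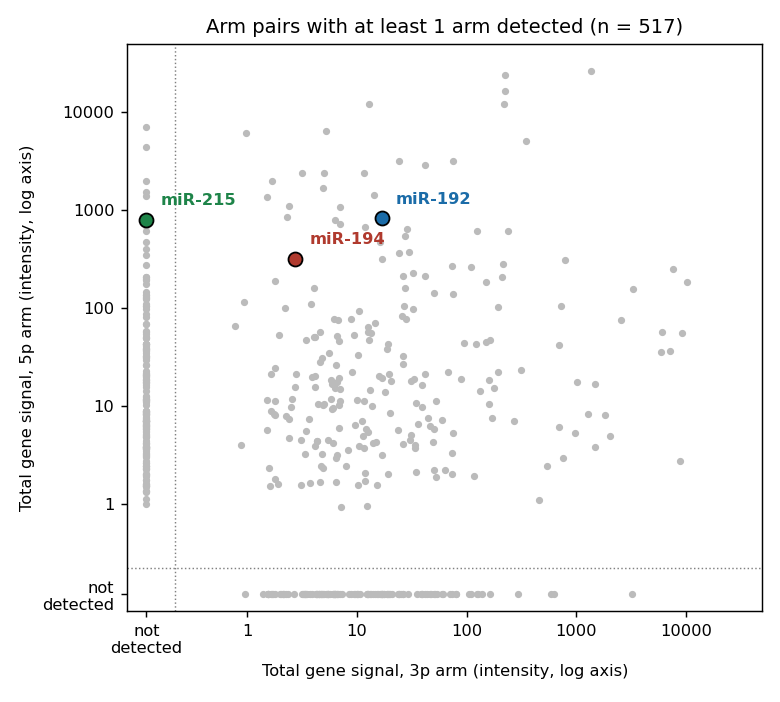
Each point is a pair of arms with at least 1 arm called detected (517 of 810 pairs), by the total gene signal of its 3p arm (horizontal) and of its 5p arm (vertical), both on log axes, with undetected arms placed past the dotted lines. miR-192 lies at 16.8 and 832, miR-194 at 2.71 and 319, and miR-215 in the strip of pairs whose 3p arm was not detected.

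The way the software adds up a signal bears on what these values mean. Over the 1763 probes with a mean above 16.1, the total probe signal equalled 0.0183 times the number of spots times the mean of the spots that were not outliers. Every miRNA on the array had 20 spots, so a mean spot signal of 2410 on the 10 spots of A_25_P00010868 became a total probe signal of 441 for miR-192-5p. A probe entered the total gene signal only if it passed 3 times its own error. For miR-194-3p the signal over error was 5.29, 4.54, 1.14 and -0.61 for its 4 probes, so the first 2 made up the 2.71 and the others added nothing. Of the 142 detected miRNAs with 4 probes, 27 rested on 2 of them in this way, and 74 on all 4.

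The error attached to the bright members was set mainly by the model of the software. The signal over error of a probe reached at most 10.0 on this array, and it was between 9.97 and 10.0 for all 6 probes of the 5p arms. The errors of miR-192-5p, miR-215-5p and miR-194-5p were therefore 7.09%, 7.08% and 7.42% of the signal, near the lowest error of 7.07% among the 196 miRNAs with a signal of 100 or more from 2 probes. Errors were larger for the dim arms, at 8.24% for miR-192-3p and 14.4% for miR-194-3p, where the median over detected miRNAs was 8.94%.

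Replicate spots of the 5p probes varied less than those errors. With outlier spots left out, the coefficient of variation (CV) over spots was 4.59% and 2.01% for the probes of miR-192-5p, 5.97% and 2.23% for miR-194-5p, and 4.95% and 0.401% for miR-215-5p. The median CV was 3.76% over the 208 probes with a mean of 1000 or more, and 5.68% over the 535 probes between 100 and 1000. For miR-192-3p the CVs were 7.56% and 7.27%, where probes between 20 and 100 had a median of 10.2%. For the 2 brighter probes of miR-194-3p they were 21.2% and 11.8%, where probes under 20 that passed the same filter had a median of 15.8%. The probe A_25_P00013475 of miR-194-3p, at a CV of 54.6%, did not pass it.

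The 0.401% of A_25_P00010926 for miR-215-5p followed from flagged spots. The software marked 4 of its 10 spots as outliers, at 2100, 2137, 2270 and 2327, which lay within 6.17% of the mean of the other 6. Without them this CV ranked 1 from the lowest of 1940 probes, and over all 10 spots the CV was 2.87%, at rank 63 of 1943. Of the 4112 probes with 10 spots, 16 (0.389%) had 4 or more outlier spots. Of the 120 spots of the 6 miRNAs, 6 (5.00%) were flagged, where 4.51% of all miRNA spots were. The other 2 were the lowest spots of A_25_P00010869 and A_25_P00011007, at -9.83% and -11.05% from the mean.

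How well the probes of a miRNA agree shows whether its signal depends on the probe. The brightest and the dimmest probe were compared on the log2 scale, with an SE from replicate spots, for probes with at least 50% of spots well above background. The difference was 0.01 ± 0.02 for miR-215-5p, 0.17 ± 0.02 for miR-192-5p, 0.29 ± 0.16 for miR-194-3p, 0.49 ± 0.05 for miR-192-3p and 0.94 ± 0.03 for miR-194-5p. Over 800 detected miRNAs the median was 0.35, with quartiles of 0.14 and 0.81. The probes of miR-215-5p differed by less than the error of the spots. Those of miR-194-5p differed by a factor of 1.91, more than for 78.9% of the 800. The 800 include miRNAs with more than 2 probes compared, and among the 682 with 2 probes the share was 83.7%. For miR-194-3p this value covers only the 2 brighter of 4 probes; with all probes of a mean above 0 it was 2.44. After normexp background correction with an offset of 50, the difference was 0.22 for miR-192-3p and 0.05 for miR-194-3p, against 0.88 for miR-194-5p. The offset is added to every signal, which by construction shrinks the log2 difference of dim probes. For miR-194-3p the means of the 2 probes were 13.4 and 16.3 before it was added. The smaller values therefore do not show closer agreement of the probes.

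**Figure D4:**
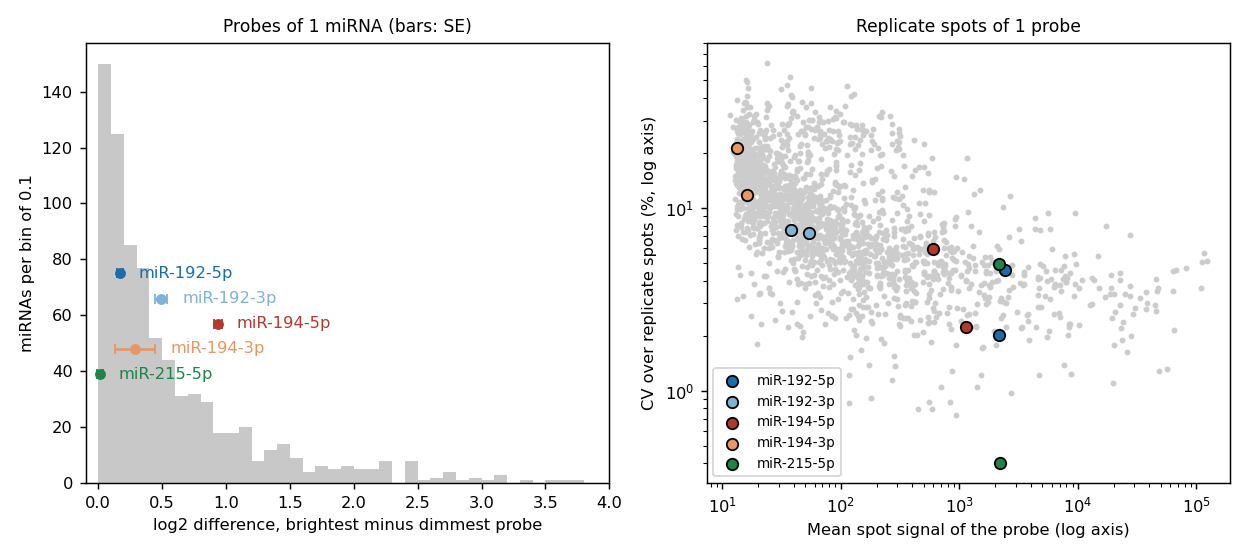
Left, the log2 difference between the brightest and the dimmest probe is shown as a histogram over 800 detected miRNAs (axis ending at 4, with 11 miRNAs beyond it) and as points with SE bars for 5 members, whose height has no meaning. Right, the CV over replicate spots is plotted against the mean spot signal of each of 1940 probes, both on log axes, with members in colour; the lowest point is a miR-215-5p probe with 4 outlier spots left out.

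The spot signals can also be placed against the array by 1 constant, which moves every member alike and leaves their order as it was. Log2 of the spot signal was taken relative to a signal of 143, the 75th percentile of all spots whose miRNA was detected. The level was 3.996 ± 0.05 (SD of spots around their own probe mean, 19 spots) for miR-192-5p, 3.93 ± 0.06 (16 spots) for miR-215-5p, 2.51 ± 0.07 (19 spots) for miR-194-5p and -1.66 ± 0.11 (20 spots) for miR-192-3p. With the percentile taken over all miRNA spots, a reference of 26.3, the level of miR-192-3p was 0.78, so whether it lay below or above the reference depended on that choice, while the 5p arms lay above both. The other 2 have spots at or below 0, which have no log, and get no level.

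The authors also deposited 1 normalized log2 value for each miRNA. It was 9.66 for miR-192-5p, 9.57 for miR-215-5p, 8.38 for miR-194-5p and 4.12 for miR-192-3p. These differed from log2 of the total gene signal by -0.04, -0.07, 0.06 and 0.05. The value of miR-194-3p was 2.3236, which is 0.88 above log2 of its signal, and that of miR-215-3p was 2.3219, the lowest in the table. A miRNA with a signal under 5 was moved up to nearly the floor of the table. So the deposited values of the detected miR-194-3p and the undetected miR-215-3p differ by less than 0.01. They do not show that only the former was detected.

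**Figure D5:**
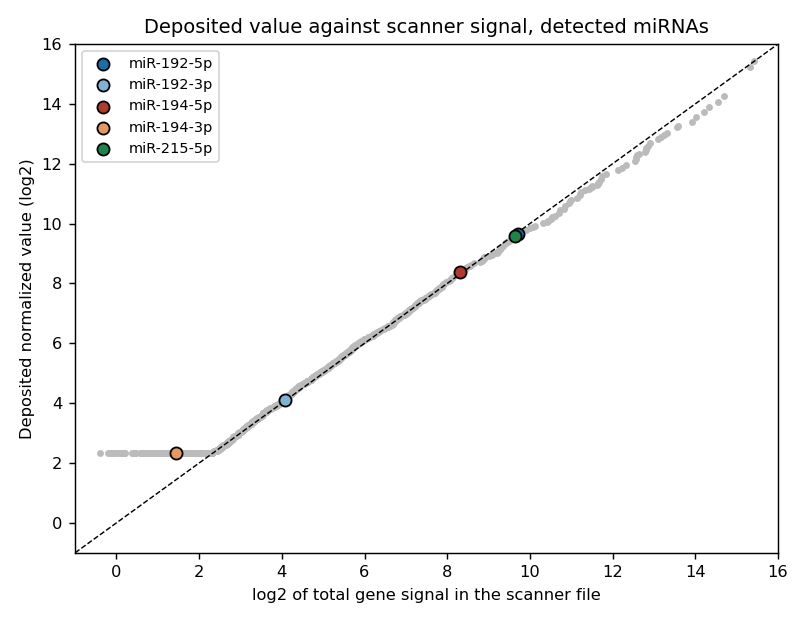
The deposited log2 value is plotted against log2 of the total gene signal in the scanner file for the 1133 detected miRNAs, with 5 members in colour and the line of equal values dashed. The 5p arms and miR-192-3p lie close to the line, and miR-194-3p lies on the flat part at 2.3236.

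Marker miRNAs, read against the 44.4% of all miRNAs that were detected, were used to check the labelled cell type and to place the 6 beside related miRNAs. All 5 markers of epithelium were detected (miR-200a-3p, miR-200b-3p, miR-200c-3p, miR-141-3p and miR-429), with total gene signals from 2576 to 9249. Of 6 markers of stroma and muscle 1 was detected, miR-126-3p at 123 ± 8.75, while miR-143-3p and miR-145-5p were not. Of 5 blood markers 3 were detected, namely miR-451a at 21.5 ± 1.67, miR-142-3p with 695 ± 50.05 and miR-223-3p with 25.4 ± 1.97, and miR-144-3p and miR-150-5p were not. miR-122, the defining miRNA of hepatocytes, another cell type rich in miR-192 and miR-194, was undetected on both arms with 0 of 20 spots well above background on each, while miR-885-5p gave 65.99 ± 4.78. Whether any of these detected signals moves with the 6 was not tested, since there was 1 array.

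Of 8 other gut miRNAs 5 were detected, where 44.4% of all miRNAs were: miR-10a-5p at 26585 ± 1894, miR-10b-5p at 12222 ± 872, miR-196b-5p at 1683 ± 121, miR-31-5p at 282 ± 20.5 and miR-375 at 52.2 ± 3.88. miR-552, on either arm, and miR-147b were not detected. Next to these, miR-192-5p, miR-215-5p and miR-194-5p had signals between those of miR-196b-5p and miR-31-5p, as a description of signals on different probes.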

How the data were processed

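RNA of si-NC DLD-1 cells was hybridised to 1 single-colour Agilent miRNA array (1 sample, group si-NC). The authors read spot intensity with Feature Extraction 11.0.1.1 (per the file headers), and the array design names hg19. The deposited intensity is background-subtracted per spot and not normalized between arrays. The deposited software flags are 0 or 1. The authors' deposited log2 values were quantile normalized in GeneSpring; their centring and floor are not stated. The labels give ligation of Cyanine 3 to RNA, whereas the study's methods name a cDNA kit, and the files do not settle this. Columns of other samples left out numbered 0.

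Python 3.11.15 (numpy 2.4.6, pandas 2.3.3, matplotlib 3.10.9) and R 4.3.3 with limma 3.58.1 were used. Control spots were left out of all miRNA values, and outlier spots were left out of means, SDs, CVs and levels. The calculations of CV, probe difference and level were tested on simulated spots, all of them set as well above background. The detection rules, arm pairs and sequence matches were not tested in this way. Sequences are from RefSeq (GRCh38.p14), which held 2248 of 2549 miRNAs (88.2%). Probe sequences were not used here. The text names the 6 members, miRNAs sharing a seed or lying within 4 mismatches, and the marker and gut lists. Members and lists were chosen with earlier results of these data known. The single array limits precision, and depth is given by signal over background. Alternatives were other detection rules, scalings, normexp background correction (offset 50), keeping outlier spots, dropping the filter on dim probes, and the deposited values. The normexp correction took the median spot signal and the median local background, not the background-subtracted signal used elsewhere.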

Additional observations from a re-analysis of the deposited data

How the results depend on the processing

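Of 6 members, 5 were called detected by the software, where 44.4% of all miRNAs were. The rule of at least 50% of spots of 1 probe well above background also called 5 (37.9% of all). So did a rule of at least 2 probes past 3 times their error, which was chosen after seeing the data (37.2%). Requiring every probe (29.4% of all), a median over the negative controls (31.2%) or a signal of at least 5 (33.3%) gave 4 each. Each of these rules left out miR-194-3p. Families with both arms detected numbered 2, where 28.6% of all pairs of arms had both. With a signal of 5 or more required there was 1, where 16.7% of pairs had both. The median level of 3.22 over the 4 members with a level became 5.66 when the percentile was taken over all miRNA spots, which lowers the reference from 143 to 26.3 and turns the level of miR-192-3p from -1.66 to 0.78, to 2.80 with normexp, to 2.39 with only spots well above background and to 3.15 with deposited values. The median probe difference of 0.29 over 5 members moved to 0.16 with normexp (0.22 for miR-192-3p, 0.05 for miR-194-3p) and 0.49 when dim probes were kept. The median deposited value minus log2 signal was 0.0056 over the 4 members with a level, without miR-194-3p at 0.88, and 0.05 over all 5 detected members. The former moved to -1.43 with mean log2 spot signal, because the total gene signal is a scaled sum of spots. With only spots well above background, the 4 members kept all their spots and SDs, so only the reference moved. Keeping dim probes changed only the difference of miR-194-3p, to 2.44. The normexp offset of 50 is added to every signal, which by construction shrinks log2 differences among dim probes and raises dim members toward the reference. For the other moves the cause was not tested. No paired analysis was possible because there was 1 array. Signal over background limits miR-194-3p and miR-215-3p.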
